A study of Mus musculus with 8 samples.

Results

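Fibroblast growth factor (FGF) ligands, their receptors and the feedback genes of the pathway were examined in cortex taken at P3 from control mice and from dcKO_hGFAP-Cre mice. The genes were chosen by symbol: protein-coding genes named Fgf or Fgfr with a number, the Sprouty and Spred genes, Etv1, Etv4, Etv5 and Dusp6. This gave 36 genes of the 48709 counted, made up of 22 ligands, 4 receptors, 3 Sprouty genes, 3 Spred genes, 3 ETS factors and Dusp6. Spry3 was not analysed here, since no counted gene matched it. Each group held 4 mice on a C57BL/6J background, and RNA from whole cortical tissue was sequenced. In dcKO_hGFAP-Cre mice both copies of BAF155 and BAF170 are floxed and Cre is driven by a human GFAP promoter, which is active in radial glia of the dorsal telencephalon, so cells that lack this Cre keep the genes. BAF155 (Smarcc1) and BAF170 (Smarcc2) are scaffold subunits of the BAF chromatin remodelling complex. Per the methods the controls carried 1 floxed copy of each gene together with the same Cre, so Cre and at least 1 floxed copy of each gene were shared by both groups, whereas the sample labels call the controls wild type.

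Secreted FGFs bind receptor tyrosine kinases at the cell surface together with heparan sulphate, and the receptors signal through the RAS and ERK kinases. ERK raises transcription of the ETS factors Etv1, Etv4 and Etv5 and of inhibitors of the same route, among them the Sprouty and Spred proteins and the ERK phosphatase Dusp6, so these genes are widely used as readouts of FGF and ERK activity. In the developing cortex the pathway is known for patterning the early telencephalon, for keeping radial glia dividing and for a role in making astrocytes and oligodendrocytes.

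Control samples held 21126713 to 31805395 counts in total and dcKO_hGFAP-Cre samples 22002784 to 32110285. Smarcc1 was at 144 to 170 CPM (counts scaled to a common library size by TMM) in control and at 73.6 to 86.9 CPM in mutant samples, and Smarcc2 at 469 to 500 and at 256 to 319 CPM, with reads from the undeleted exons included. Some mutant samples stood apart in markers of other cells. Of 9 radial glia and astrocyte markers, 8 were higher in mutant replicate 3 than in each of the other mutants, with Gfap at 273 CPM against 24.2 to 32.2 CPM in the other mutants and 79.3 to 89.5 CPM in controls. Choroid plexus markers were high in mutant replicates 1 and 2, where Ttr reached 584 and 1128 CPM, against 15.8 and 1.72 CPM in replicates 3 and 4 and 0.0664 to 9.37 CPM in controls.

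Transcripts of ETS factors, of Dusp6, of 1 receptor and of several ligands were reduced in the mutant cortex. Of the 36 genes, 30 passed the filter on low counts and were tested, 13 were lower and 2 were higher in dcKO_hGFAP-Cre cortex (quasi-likelihood test of edgeR, Benjamini-Hochberg adjusted p below 0.05 over 16525 genes), 15 were not called, and 6 were not tested. The background was high: 18.9% of all tested genes were lower and 18.6% higher by the same test. The median log2 fold change, mutant against control, was -0.29 over the 30 tested genes and 0.02 over all genes tested. In 13 of the 30, every mutant sample lay below every control sample, against 17.7% of all tested genes, and in 3 every mutant sample lay above every control sample, against 16.7%. When counts were scaled by library totals in place of TMM, which moved the median of all genes to 0.15, 11 of the genes were lower and 5 higher, and the background became 12.7% lower and 27.7% higher. The share of the 30 that was higher lay below that background under either scaling. These are levels in whole tissue, in which fewer cells of a type and less RNA per cell cannot be told apart.

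**Figure D1:**
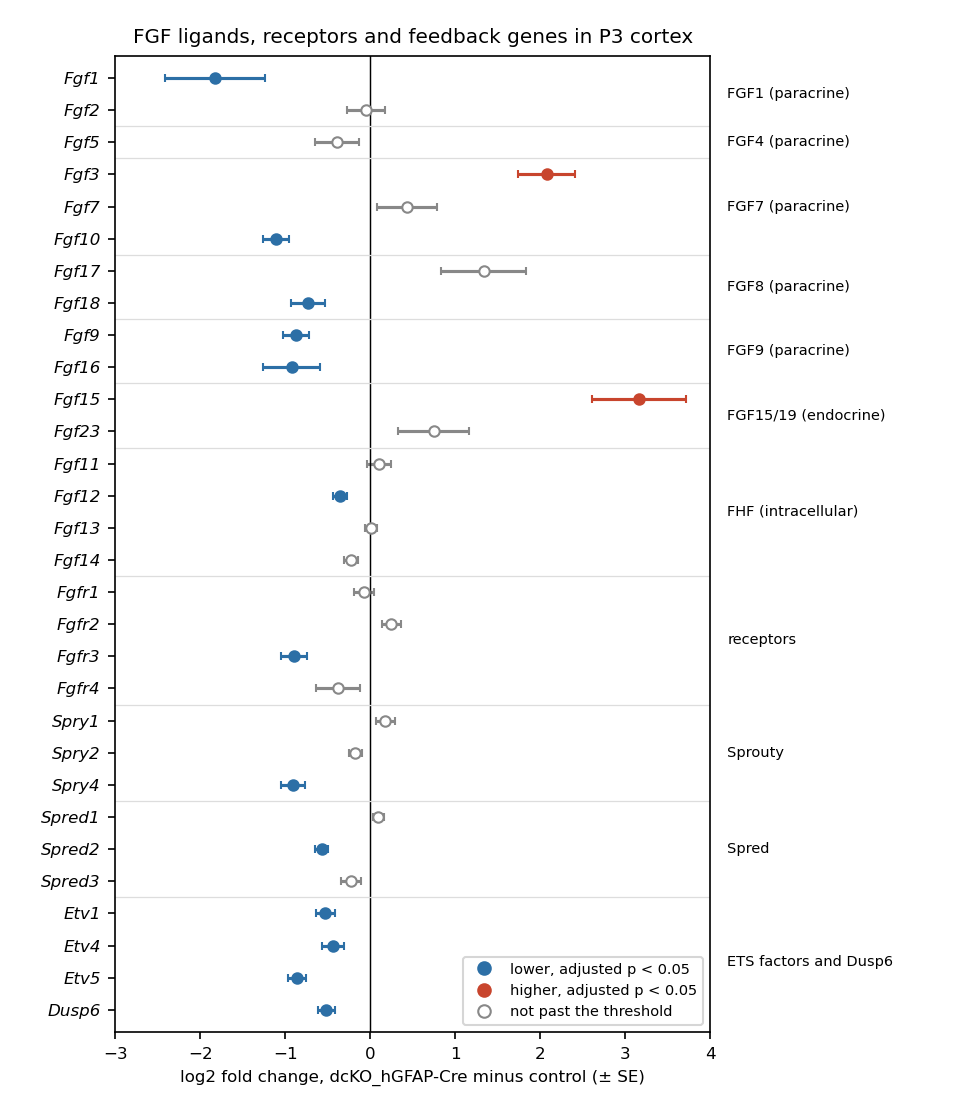
Log2 fold change in expression, dcKO_hGFAP-Cre minus control (x axis), of the 30 tested genes, ordered by role (y axis), with points for edgeR estimates and bars for the standard error. The ETS factors and Dusp6 sit to the left of 0 together, while most ligands, receptors, Sprouty and Spred genes are split, and Fgf15 and Fgf3 are the filled points to the right.

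All 4 of the ETS factors and Dusp6 were lower, where 18.9% of all tested genes were lower. Of the FGF9 subfamily, described with the ligands, both tested members were lower as well and Fgf20 was not tested. Etv5, a transcription factor induced by ERK (chromosome 16, 22381309 to 22439719, minus strand, mm10), was at 41.6, 43.8, 46.8 and 43.4 CPM in controls and at 20.01, 24.4, 27.7 and 24.4 CPM in mutants. The mutant samples were all below the controls, at 55.0% of the control mean, with a log2 fold change of -0.86 (SE 0.10, n = 4 per group, adjusted p = 6.48e-05, edgeR). Etv1, its close relative and also a marker of layer V neurons, was at 27.8, 32.6, 29.1 and 24.7 CPM in controls and at 21.8, 17.6, 18.5 and 21.01 CPM in mutants. The groups did not overlap, and the log2 fold change was -0.53 (SE 0.11, adjusted p = 0.00301, edgeR). Etv4, the other member of this ETS subfamily, was at 27.7, 23.8, 23.0 and 24.96 CPM in controls and at 17.1, 17.9, 23.3 and 15.2 CPM in mutants. Mutant replicate 3 reached the control range and the other mutants did not. The log2 fold change of Etv4 was -0.44 (SE 0.13, adjusted p = 0.0203, edgeR) and -0.58 without that sample, but its call was lost without mutant replicate 1 (adjusted p = 0.0547), without mutant replicate 4 (0.0575) and with library totals (0.0769).

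Dusp6, the phosphatase that inactivates ERK in the cytoplasm (chromosome 10, 99263231 to 99267489, plus strand), was at 49.4, 44.3, 47.2 and 53.2 CPM in controls and at 34.9, 27.9, 37.2 and 35.7 CPM in mutants. All mutant samples were below the controls, and the log2 fold change was -0.52 (SE 0.10, adjusted p = 0.00212, edgeR). Summed over the 4 genes, expression was between 144.5 and 146.5 CPM in every control and between 87.9 and 106.6 CPM in the mutants. The controls were thus close together while the mutants spread more widely, with replicate 3 the highest.

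Among the antagonists, 1 of 3 Sprouty genes and 1 of 3 Spred genes were lower and none was higher. By the same test 18.9% of all tested genes were lower and 18.6% higher. Spry4, which blocks RAS activation downstream of the receptor, was at 16.2, 19.9, 18.5 and 17.9 CPM in controls and at 7.27, 9.53, 11.5 and 10.3 CPM in mutants. It was at 53.1% of the control mean without overlap, a log2 fold change of -0.91 (SE 0.14, adjusted p = 0.000387, edgeR). Spred2, an inhibitor of RAS and ERK signalling, was at 67.9, 72.9, 79.7 and 72.4 CPM in controls and at 48.7, 48.1, 49.9 and 50.4 CPM in mutants. The mutant samples lay within a narrow range below the controls, with a log2 fold change of -0.57 (SE 0.08, adjusted p = 0.00015, edgeR).

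The other Sprouty and Spred genes did not pass the test. Spry2 was at 48.6 to 52.7 CPM in controls and at 41.3 to 47.5 CPM in mutants, so the groups did not overlap, but its log2 fold change was small at -0.17 (95% interval -0.33 to -0.02, adjusted p = 0.101, edgeR). Spry1 had a log2 fold change of 0.17 (95% interval -0.04 to 0.39). Spred1, the paralogue of Spred2, averaged 113 CPM in control (SD 2.68) and 121 CPM in mutant cortex (SD 3.04, n = 4). The log2 fold change of Spred1 was 0.09 (95% interval -0.03 to 0.22), opposite in sign to that of Spred2. Every mutant was above every control for Spred1, and with library totals its log2 fold change was 0.21 and passed the threshold (adjusted p = 0.0225, edgeR). Spred3 had a log2 fold change of -0.23 (95% interval -0.46 to 5.12e-05). Exons of 11 of the 36 genes overlap those of other annotated genes, namely Spry1, Spred3, Fgfr1, Fgfr2, Fgfr3, Fgf2, Fgf10, Fgf14, Fgf15, Fgf20 and Fgf22. The strand setting of the counting is not given in the sources used here, so their counts are uncertain.

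Of the 4 receptors, Fgfr3 alone passed the test and was lower, where 18.9% of all tested genes were lower. Fgfr3, the receptor most tied to radial glia and astrocytes in this tissue (chromosome 5, 33721674 to 33737068, plus strand), was at 55.3, 46.5, 50.2 and 49.7 CPM in controls and at 26.2, 21.7, 37.3 and 23.2 CPM in mutants. No mutant reached the controls, replicate 3 was the highest mutant, and the log2 fold change was -0.90 (SE 0.15, adjusted p = 0.000777, edgeR). It was -1.09 without mutant replicate 3. Fgfr1, the receptor with the broadest expression in the brain, averaged 63.9 CPM in control (SD 7.36) and 60.7 CPM in mutant cortex (SD 8.79, n = 4), a log2 fold change of -0.07 (95% interval -0.30 to 0.15) that turned to 0.05 with library totals.

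Fgfr2, another receptor of glial cells, was at 24.9, 25.9, 36.4 and 30.2 CPM in controls and at 34.7, 35.5, 36.0 and 33.7 CPM in mutants. Its control samples were spread over the mutant range, and the log2 fold change was 0.25 (95% interval 0.02 to 0.48, adjusted p = 0.108, edgeR). Fgfr2 passed the threshold without control replicate 3 (log2 fold change 0.37, adjusted p = 0.0216) and with library totals (0.37, adjusted p = 0.0184). Fgfr4 was near 1 CPM in both groups and its log2 fold change was -0.38 (95% interval -0.88 to 0.13). The annotated Fgfr2 extends by read-through to Ctbp2.

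**Figure D2:**
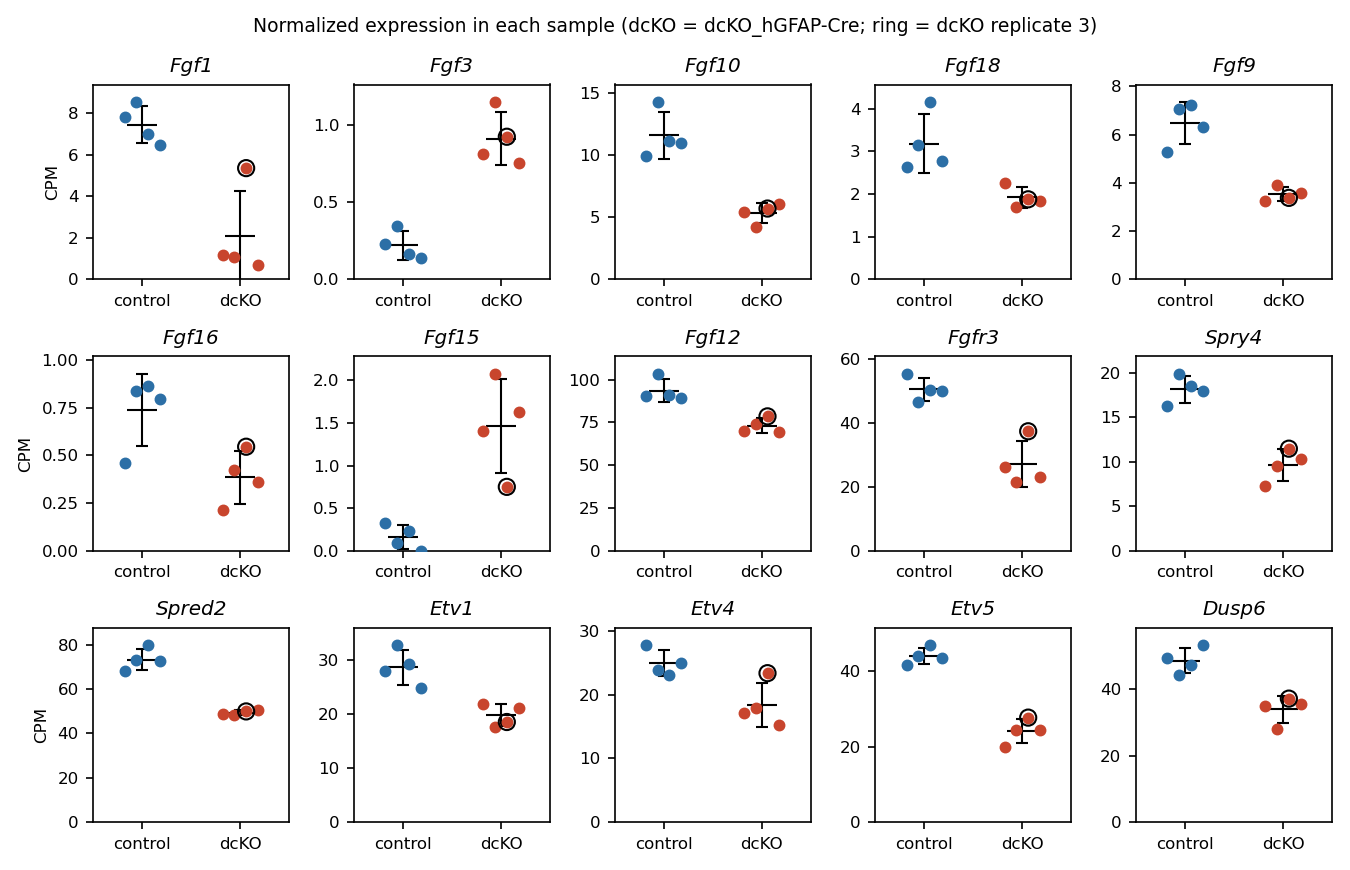
Normalized expression (CPM, y axis from 0) of the 15 genes past the threshold in each of the 4 control (blue) and 4 dcKO_hGFAP-Cre (red) samples, with the mean and SD as black bars, cut at 0 for Fgf1, and a ring round mutant replicate 3. Etv4 and Fgf16 are the panels in which the groups overlap, and in Fgf1 the ringed sample at 5.36 CPM is far above the other mutants.

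Of the 18 secreted or otherwise extracellular ligands, 12 were tested, 5 were lower and 2 were higher. The share lower was 41.7%, against 18.9% of all tested genes, and the share higher was 16.7%, against 18.6%. Fgf10, a paracrine ligand known to promote the transition to radial glia in the early cortex (chromosome 13, 118669791 to 118792115, plus strand), was at 9.94, 14.2, 11.2 and 11.0 CPM in controls and at 5.39, 4.24, 5.70 and 6.04 CPM in mutants. Fgf10, whose exons overlap the antisense gene Gm16263, fell to 46.1% of the control mean without overlap between the groups (log2 fold change -1.11, SE 0.15, adjusted p = 0.000198, edgeR). Fgf9, a ligand made by neurons, was at 5.29, 7.05, 7.20 and 6.32 CPM in controls and at 3.25, 3.90, 3.38 and 3.59 CPM in mutants. The groups were separate, with a log2 fold change of -0.87 (SE 0.15, adjusted p = 0.000927, edgeR).

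Fgf18, a ligand of the FGF8 subfamily, was at 2.62, 3.15, 4.15 and 2.78 CPM in controls and at 2.27, 1.69, 1.88 and 1.84 CPM in mutants. The highest mutant came near the lowest control, and the log2 fold change was -0.73 (SE 0.20, adjusted p = 0.0129, edgeR). Without control replicate 3 the log2 fold change of Fgf18 was -0.57 and the call was lost (adjusted p = 0.0560). Fgf16, a relative of Fgf9 that was under 1 CPM in every sample, averaged 0.740 CPM in control (SD 0.188) and 0.386 CPM in mutant cortex (SD 0.138, n = 4). The groups overlapped, and its call (log2 fold change -0.92, SE 0.33, adjusted p = 0.0435, edgeR) was lost in 10 of 16 alternatives, 6 of which left out 1 sample: control replicate 2, 3 or 4, or mutant replicate 1, 2 or 4 (adjusted p = 0.0727 to 0.117).

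Fgf1, acidic FGF, which has no signal peptide and leaves cells by another route, was at 7.82, 8.53, 7.01 and 6.46 CPM in controls and at 1.20, 1.06, 5.36 and 0.694 CPM in mutants. Mutant replicate 3 lay close to the controls and the other mutants far below them. The log2 fold change was -1.83 (SE 0.59, adjusted p = 0.0430, edgeR), and -2.94 (adjusted p = 1.57e-06) without mutant replicate 3. With any other single sample left out, control or mutant, the adjusted p lay between 0.0699 and 0.0907 and the call was lost.

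Fgf1, Fgfr3 and Etv4 were higher in mutant replicate 3 than in the other mutants, as were astrocyte markers. Aqp4, the water channel of astrocytes, was at 53.0 CPM in that sample, at 9.49 to 9.92 CPM in the other mutants and at 38.8 to 63.7 CPM in controls. Aldoc, a glycolytic enzyme of astrocytes, was at 245 CPM against 33.2 to 43.5 CPM in the other mutants. The sum of the 9 radial glia and astrocyte markers was 1726 to 1778 CPM in controls and 1128 to 2732 CPM in mutants, 6 of the 9 were below every control in mutant replicates 1, 2 and 4, and over all 8 samples 1 of the 9, Hopx, was higher and none was lower. Of the 13 lower FGF genes, mutant replicate 3 was the highest mutant in 8, and not in Etv1, Fgf9, Fgf10, Fgf18 and Spred2. The share of all tested genes with this order was not taken, so the count is not read as a trait of FGF genes. Fgf1, Fgfr3 and Etv4 were named here after their values were seen. The part of astrocyte RNA in these differences was not tested.

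**Figure D3:**
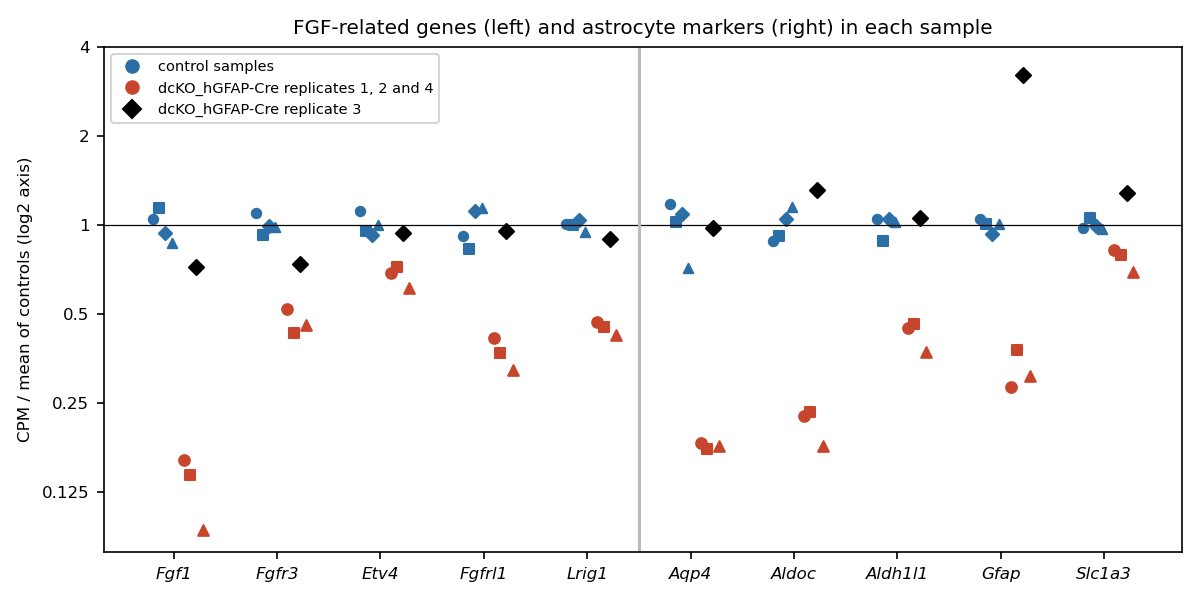
Expression divided by the mean of the controls (y axis, log2 axis) in each sample for 5 FGF-related genes and 5 astrocyte markers (x axis), with controls in blue, mutant replicates 1, 2 and 4 in red and mutant replicate 3 in black. Genes were picked after their values were seen; Gfap, at 273 CPM in mutant replicate 3, is the marker farthest above its controls.

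Fgf15 and Fgf3 were the ligands with higher expression, both from very low control levels. Fgf15, the mouse counterpart of the endocrine factor FGF19 and known in the embryonic brain from the diencephalon, was at 0.322, 0.0986, 0.232 and 0 CPM in controls and at 1.41, 2.08, 0.751 and 1.63 CPM in mutants. These values stood for 7, 2, 7 and 0 reads in controls and 33, 49, 22 and 54 reads in mutants, without overlap, and the log2 fold change was 3.16 (SE 0.55, adjusted p = 0.00104, edgeR). Fgf3, a ligand of inner ear and hindbrain development, was at 0.230, 0.345, 0.166 and 0.139 CPM in controls and at 0.812, 1.14, 0.921 and 0.755 CPM in mutants. All mutants were above the controls, with a log2 fold change of 2.07 (SE 0.34, adjusted p = 0.000558, edgeR). Fgf3 (144838083 to 144844436) and Fgf15 (144896531 to 144900953) lie close together on the plus strand of chromosome 7 of mm10. Both passed the low-count filter through the mutant samples, and neither was tested when at least 10 counts were required in every sample.

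Markers of thalamus and midbrain were also higher in the mutants, 4 of 5 on the list, where 18.6% of all tested genes were higher. Gbx2, a thalamic transcription factor, was at 0 to 0.0493 CPM in controls and at 1.09 to 1.95 CPM in mutants, and Lhx9 was at 0.972 to 2.76 and at 10.1 to 17.1 CPM. The summed level of the 5 markers was 52.4 to 64.3 CPM in controls and 69.4 to 103.6 CPM in mutants. Most of that sum was Slc17a6, at 47.4 to 56.4 CPM in controls and 50.3 to 78.3 CPM in mutants, which overlapped and did not pass the threshold. Of the choroid plexus list, 3 of 7 were higher, and the summed level was 4.38 to 13.9 CPM in controls and 8.54 to 1191 CPM in mutants. Gbx2, with at most 1 read in a control sample, and Th, with 6 to 16, passed the low-count filter through the mutant samples. So did Otx2 and Kcne2 of the choroid plexus list, with at most 7 and 13 reads in a control sample. The counts of 4 of 5 and 3 of 7 therefore include genes that entered the test through the mutants. Without mutant replicates 1 and 2, where the summed choroid plexus level was highest, the log2 fold changes were 2.87 for Fgf15 (adjusted p = 0.0182, edgeR) and 1.96 for Fgf3 (adjusted p = 0.0125). In mutant replicates 3 and 4 the summed levels were 24.1 and 8.54 CPM. Otx2 was at 3.07 and 3.95 CPM in them, against 0.0694 to 0.276 CPM in controls, while Folr1 and Kl were not above every control. Leaving out replicates 1 and 2 thus did not bring every choroid plexus marker to control levels. Whether tissue next to the cortex added to Fgf15 and Fgf3 was not tested.

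Of the remaining extracellular ligands, 5 were tested and not called. Fgf17, a relative of Fgf8, had the largest log2 fold change among them, 1.33 (95% interval 0.36 to 2.31, adjusted p = 0.0506, edgeR), at 1 to 26 reads per sample. It passed the threshold in 7 of its alternatives. Fgf23, the phosphate hormone, had a log2 fold change of 0.75 (95% interval -0.07 to 1.56) and Fgf7, the keratinocyte growth factor, of 0.43 (95% interval -0.27 to 1.12). Without control replicate 1 Fgf23 had a log2 fold change of 1.15 and passed the threshold (adjusted p = 0.0482, edgeR), and without mutant replicate 4 that of Fgf7 was 0.10. Fgf5 had a log2 fold change of -0.39 (95% interval -0.90 to 0.12). Fgf2, basic FGF, a mitogen of cortical progenitors, averaged 2.91 CPM in control (SD 0.379) and 2.79 CPM in mutant cortex (SD 0.776, n = 4), a log2 fold change of -0.05 (95% interval -0.48 to 0.39). Exons of Fgf2 overlap those of Nudt6 on the other strand.

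The 6 ligands that were not tested, Fgf4, Fgf6, Fgf8, Fgf20, Fgf21 and Fgf22, had at most 11 reads in any sample. Fgf8, the organizer signal of the early forebrain, had 0, 1, 0 and 0 reads in controls and 2, 3, 2 and 3 in mutants, so every mutant had more reads than every control (p = 0.0286 by exact two-sided permutation, as small as 4 against 4 can give). Any full separation of the groups gives this p. Among all tested genes, 16.7% had every mutant above every control and 17.7% every mutant below. Both groups were at or under 3 counts, and no fold was taken. Fgf20 had no read in controls and 1, 0, 2 and 3 reads in mutants. Fgf22, a ligand of synapse formation, had 1, 6, 9 and 11 reads in controls and 3, 2, 6 and 7 in mutants. These genes were left out by the low-count filter, and 3 counts stood for 0.0906 to 0.148 CPM.

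The 4 FGF homologous factors act inside neurons, where they bind voltage-gated sodium channels, and 1 of the 4 was lower. This share of 25% was near the 18.9% of all tested genes that were lower. Fgf12 was at 90.6, 103, 91.1 and 89.2 CPM in controls and at 69.9, 74.3, 78.6 and 69.3 CPM in mutants. The groups did not overlap, and the log2 fold change was -0.36 (SE 0.08, adjusted p = 0.00398, edgeR) and -0.24 with library totals. Fgf14, mutated in a spinocerebellar ataxia, was at 30.9 to 35.7 CPM in controls and at 27.1 to 30.8 CPM in mutants, so the mutants were all below the controls. Its log2 fold change of -0.23 did not pass the threshold (95% interval -0.40 to -0.06, adjusted p = 0.0579, edgeR) and did with DESeq2 (adjusted p = 0.0350), with DESeq2 size factors (0.0450) and without control replicate 4 (0.0458).

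Fgf13, which also binds microtubules, was at 275 to 302 CPM in controls and at 260 to 306 CPM in mutants, and Fgf11 was at 28.4 to 34.7 and at 23.4 to 38.7 CPM. The log2 fold change was 0.01 for Fgf13 (95% interval -0.14 to 0.16) and 0.10 for Fgf11 (-0.18 to 0.38), and the value of Fgf11 lay between 0.021 and 0.221 with 1 sample left out. Among the 15 tested but uncalled FGF genes, 10 had a 95% interval of the log2 fold change that lay within 0.5 of 0 on both sides.

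Levels were compared between genes as CPM per kb of annotated exon. In control cortex Fgf13 was the highest of the 36, at 71.3 CPM per kb, followed by Spry2 at 23.9, Spred1 at 16.7, Spred2 at 15.8, Dusp6 at 15.5 and Fgf12 at 15.1 CPM per kb. Each of the 4 intracellular factors was above 8 CPM per kb, while the highest extracellular ligands were Fgf18 at 2.68 and Fgf10 at 2.52 CPM per kb. Among the receptors, Fgfr3 was at 7.04, Fgfr1 at 6.47, Fgfr2 at 2.84 and Fgfr4 at 0.359 CPM per kb in controls. In mutants the order of the receptors was Fgfr1 at 6.15, Fgfr3 at 3.78, Fgfr2 at 3.38 and Fgfr4 at 0.276 CPM per kb. Exons of Fgfr1, Fgfr2 and Fgfr3 overlap those of other genes, and annotated Fgfr2 extends to Ctbp2, so these levels are uncertain. Fgfr1 and Fgfr3 were neighbours in controls whose levels lay close relative to the spread of Fgfr1, and no test was made of these orders.

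**Figure D4:**
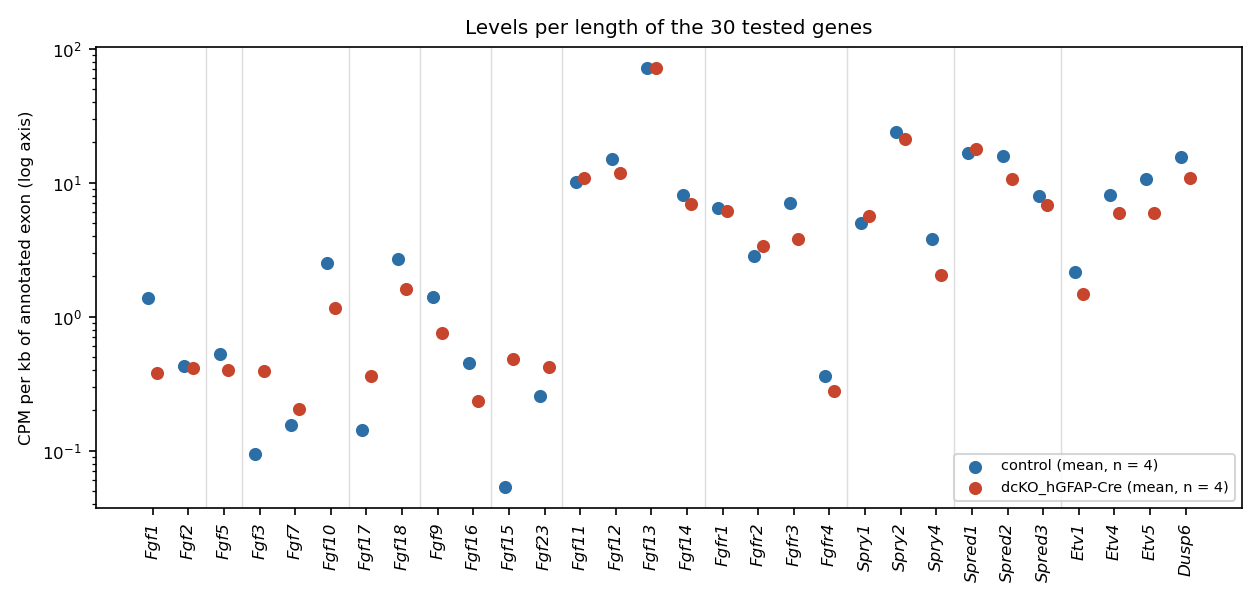
Mean expression per length (CPM per kb of annotated exon, y axis, log axis) of the 30 tested genes (x axis) in control (blue) and dcKO_hGFAP-Cre (red) cortex, n = 4 each. Fgf13, at 71.3 CPM per kb in control, is the highest, the intracellular factors lie above the extracellular ligands, and the red points of Fgf15 and Fgf3 lie above the blue.

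The sequences before the transcription start were examined for genes that fell together. RefSeq promoters of build GRCm38.p6, each of 300 bases with 250 before the start, were matched for 27 of the 36 genes, 36 promoters in all. The ETS core CCGGAA, searched on both strands, was found in 4 of the 36 promoters (11.11%), against 14.9% of all 32851 promoters, and in 1 of the 15 promoters of lower genes, an alternative start of Fgf12. The E-box CANNTG, which proneural and other bHLH factors bind and which is the same on both strands, was in 24 of 36, against 72.31% of all promoters. The 250 bases before a start are shown for Dusp6 and for Fgf10, Fgf18 and Fgf9, the lower extracellular ligands over 1 CPM with a RefSeq entry. Capitals mark E-boxes, none of the windows holds an annotated exon base, and those of Fgf10 and Fgf9 lie in introns of longer annotated transcripts. The windows are Dusp6 at chr10:99262981-99263230 (plus strand), Fgf10 at chr13:118714449-118714698 (plus), Fgf18 at chr11:33147401-33147650 (minus) and Fgf9 at chr14:58072436-58072685 (plus).
Dusp6: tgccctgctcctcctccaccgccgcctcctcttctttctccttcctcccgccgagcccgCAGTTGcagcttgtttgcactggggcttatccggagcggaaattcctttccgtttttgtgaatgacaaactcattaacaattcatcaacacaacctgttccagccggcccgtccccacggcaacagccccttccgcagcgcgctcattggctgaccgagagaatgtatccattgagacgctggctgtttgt
Fgf10: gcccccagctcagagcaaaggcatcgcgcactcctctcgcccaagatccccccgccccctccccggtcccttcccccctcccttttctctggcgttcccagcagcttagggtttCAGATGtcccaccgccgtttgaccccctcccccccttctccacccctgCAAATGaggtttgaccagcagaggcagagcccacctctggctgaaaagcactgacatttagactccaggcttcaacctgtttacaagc
Fgf18: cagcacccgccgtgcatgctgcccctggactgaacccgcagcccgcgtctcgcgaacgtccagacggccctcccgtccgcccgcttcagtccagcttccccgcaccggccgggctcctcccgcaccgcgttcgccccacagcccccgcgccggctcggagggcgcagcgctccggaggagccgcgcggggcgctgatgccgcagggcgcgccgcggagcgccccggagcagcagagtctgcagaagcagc
Fgf9: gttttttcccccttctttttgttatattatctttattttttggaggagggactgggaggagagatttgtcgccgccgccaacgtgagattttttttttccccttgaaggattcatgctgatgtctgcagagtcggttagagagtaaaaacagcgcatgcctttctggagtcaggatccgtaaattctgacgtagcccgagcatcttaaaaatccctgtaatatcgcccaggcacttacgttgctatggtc
The window of Dusp6 held 1 E-box and that of Fgf10 held 2, while those of Fgf18 and Fgf9 held none. The matches are given as a description of these windows.

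Other genes of the route were taken from a list of 48 with roles beside the FGF genes, of which 46 were tested, 19 were lower and 4 were higher, read against the same background of 18.9% and 18.6%. Of the 15 tested co-receptors and extracellular modulators, 6 were lower. Sulf2, which trims sulphate from heparan sulphate, averaged 260.0 CPM (SD 10.4) in control and 150.4 CPM (SD 11.4) in mutant cortex, and its log2 fold change was -0.79 (SE 0.08, adjusted p = 1.3e-05, edgeR). Hs6st1, which adds such sulphate, had a log2 fold change of -0.72 (SE 0.08, adjusted p = 5.25e-05). The decoy receptor Fgfrl1 had a log2 fold change of -0.95 (SE 0.33, adjusted p = 0.0461), again with mutant replicate 3 in the control range. Gpc4, a heparan sulphate proteoglycan, was the gene of this list that was higher, from 14.8 ± 1.60 CPM to 28.6 ± 4.43 CPM (mean ± SD, n = 4, log2 fold change 0.95, SE 0.13, adjusted p = 0.000166).

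Of 21 intracellular transducers, 8 were lower and 1 was higher, with smaller differences. Among all tested genes 18.9% were lower and 18.6% higher. The scaffold Ksr1 and the RAS activator Sos1 each had a log2 fold change of -0.46 (SE 0.12 and 0.09, adjusted p = 0.00828 and 0.00159, edgeR), and the docking protein Gab1 of -0.36 (SE 0.10, adjusted p = 0.0144). Araf, a RAF kinase, was higher with a log2 fold change of 0.48 (SE 0.07, adjusted p = 0.000254). Of 10 tested ERK feedback and response genes outside the FGF list, 5 were lower and 2 higher. Lrig1, a receptor inhibitor (log2 fold change -0.83, SE 0.22, adjusted p = 0.0151), Ets1 (-0.63, SE 0.10, adjusted p = 0.000663) and the phosphatase Dusp7 (-0.54, SE 0.09, adjusted p = 0.000623) fell most, and the RAS inhibitors Rasal1 (0.57, SE 0.10, adjusted p = 0.00111) and Rasa1 (0.28, SE 0.09, adjusted p = 0.0294) rose. Without mutant replicate 1 the number of lower genes on the list of 48 was 12 in place of 19.

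Markers of several cell types differed between the same samples, where 18.9% of all tested genes were lower and 18.6% higher. All 7 markers of oligodendrocyte precursors were lower, with a summed level of 422.9 to 458.0 CPM in controls and 234.7 to 312.5 CPM in mutants. Of 7 markers of cortical projection neurons 5 were lower, with a summed level of 1490 to 1639 CPM in controls and 768.4 to 888.7 CPM in mutants. Of 6 endothelial markers 4 were lower, with a summed level of 177.7 to 235.0 CPM in controls and 97.8 to 173.0 CPM in mutants.

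Markers of microglia and of striatal neurons were higher. Of 6 microglial markers 4 were higher, with a summed level of 84.0 to 118.2 CPM in controls and 139.5 to 157.2 CPM in mutants. Of 8 markers of striatal projection neurons 5 were higher, with a summed level of 122.0 to 174.9 CPM in controls and 364.5 to 703.1 CPM in mutants. Ppp1r1b, a phosphatase inhibitor of striatal neurons, was at 34.2 to 49.1 CPM in controls and at 271 to 343 CPM in mutants. None of 8 markers of meninges and fibroblasts was called, with a summed level of 93.0 to 280.0 CPM in controls and 41.7 to 451.4 CPM in mutants. The part of these cell types in the levels of the FGF genes was not tested.

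Every sequencing lane held samples of both groups. The 13 lower genes were called from these same samples, and in 11 of them the groups did not overlap. For those 11 a lower mutant mean within each lane was fixed in advance, as was a higher one for Fgf3 and Fgf15. In lane 5, with 2 samples of each group, the mutant mean was below the control mean for 13 of the 13 lower genes, with log2 ratios from -2.86 to -0.43. In lane 6, with 1 sample of each group, it was below for 12 of 13, Etv4 being the exception at a log2 ratio of 0.02, and in lane 7, also with 1 of each, for 13 of 13. Fgf3 was higher in the mutant in each lane, and Fgf15 in lanes 5 and 6, with no ratio in lane 7, where the control had no read. Mutant replicates 1 and 2 were the mutants of lane 5, so leaving them out left only controls in that lane. Without mutant replicates 1 and 2, an alternative chosen after seeing the data, 8 of the FGF genes were lower and 2 higher, where 9.18% of all tested genes were lower and 8.06% higher. Etv4 (adjusted p = 0.165), Fgf1 (0.221), Fgf16 (0.238), Fgf18 (0.0636) and Fgf12 (0.0521) lost their calls there and kept a negative log2 fold change.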

How the data were processed

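RNA was extracted from P3 cortex and libraries were made with a TruSeq kit. The authors deposited raw counts per gene, made with featureCounts from reads mapped to mm10; aligner, annotation and strand setting are not given in the sources used here. Ensembl identifiers were matched to GENCODE M21, giving 48349 genes a symbol. Samples were grouped by labels. The 36 genes, the lists of other genes and the tests were chosen with earlier results of these data known. Every gene of the rule was accounted for, those called at 1 CPM or more with each sample's value, and of each list of other pathway genes up to 3 called genes with the largest fold change in each direction. Marker lists were given as counts and summed levels, with the marker genes named in the text chosen after their values were seen.

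Counts were normalized by TMM, filtered (minimum count 10) and tested with the robust quasi-likelihood test of edgeR 4.0.16 in R 4.3.3. Two-sided p-values were adjusted over 16525 genes by Benjamini-Hochberg at 0.05. Standard errors were derived from each log2 fold change and F value, and 95% intervals from them by the normal quantile. Exact permutation over 70 arrangements cannot give a p below 0.0286. The labels do not say whether replicates shared a litter, so p-values measure the spread between these samples. No replicates agreed within sampling noise. Alternatives were DESeq2 1.42.0, limma 3.58.1 voom, other size factors and filters, blocks for lane and replicate number, a threshold of 0.01 and each sample left out. Scripts were tested on simulated data.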

Additional observations from a re-analysis of the deposited data

Results flagged for a closer look

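In 6 of 60 groups of 4 values, 1 sample stood far from the other 3 by Dixon's 95% limit on the gap, where chance gives about 3. Fgf1 was highest in mutant replicate 3 at 5.36 CPM, with the astrocyte markers given above. Fgf12 was highest in control replicate 2 at 103 CPM, Spred3 in control replicate 1 at 55.8 CPM, Spry2 in control replicate 4 at 52.7 CPM and Fgf7 in control replicate 1 at 0.736 CPM. Fgf16 was lowest in control replicate 1 at 0.460 CPM.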

How the results depend on the processing

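Of the 15 called FGF genes, 10 kept their direction and call in every alternative at the 0.05 threshold in which they were tested, and Fgf1, Fgf16, Etv4, Fgf18 and Fgf12 lost the call in 9, 10, 4, 2 and 1 alternatives without a change of sign, the stricter threshold not counted. At an adjusted p under 0.01, 9 FGF genes were lower and 2 higher, and Fgf1, Fgf16, Etv4 and Fgf18 lost the call. Higher FGF genes numbered 5 with library totals (2102 of all genes lower and 4584 higher), 0 with at least 10 counts in every sample (edgeR, where Fgf15 and Fgf3 were not tested and 1 other had an unadjusted p under 0.05) and 2 to 4 with each sample left out, 4 without control replicate 1. Other pathway genes lower numbered 11 with library totals and 12 to 19 with each sample left out. Without mutant replicates 1 and 2, which leaves 2 mutants, 8 FGF genes, 8 other pathway genes and 1581 of all genes were lower and 1388 of all genes higher. At that stricter threshold 1938 of all genes were lower and 1611 higher. Uncalled log2 fold changes near 0 turned sign, Fgf2 to 0.0733 with library totals, 0.0462 without mutant replicates 1 and 2 and -0.17 to 0.12 with each sample left out, Fgf13 to -0.0081 with DESeq2 size factors, -0.0081 with DESeq2, -0.0201 without mutant replicates 1 and 2 and -0.0277 to 0.0542 with each sample left out, and Fgfr1 to 0.0459 with library totals and -0.15 to 0.0024 with each sample left out. The cause was not tested. Same-numbered samples did not deviate together in each pair (correlations 0.17, -0.07, 0.21 and -0.02), and with the replicate number as a block 13 FGF genes were lower and 2 higher, and 16 and 4 of the other pathway genes. Counts under about 10 reads limit Fgf15, Fgf3, Fgf17 and the untested ligands.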
